A study of Vitis vinifera with 36 samples.

Results

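The 6 genes described here are named as enzymes of the middle of the grape carotenoid pathway. These are the 2 lycopene cyclases LECY and LBCY, the 2 carotene hydroxylases LUT5 and LUT1, and 2 loci named as zeaxanthin epoxidase, ZEP. They were taken by their listed identifiers and make up 6 of the 25280 genes in the expression table. RNA-seq was done on whole deseeded pericarps of Cabernet Sauvignon berries from 3 treatments at 4 ripening stages of the E-L scale (E-L 34, 35, 36 and 38), which gave 12 groups of 3 replicates and 36 libraries in all. Clusters of the ABA1000 group were sprayed with 1000 mg/L abscisic acid (ABA), the hormone that accompanies the onset of grape ripening. Those of the NAA100 group received 100 mg/L 1-naphthaleneacetic acid (NAA), a synthetic auxin, and those of the Control group the carrier alone. All 3 solutions held 0.05% Tween 20 and were applied at week 7 after flowering, to hard green berries, and again 10 h later. The field was laid out in randomized blocks, with 3 plots of 50 vines per treatment, 500 berries per replicate and 50 of these used for RNA. The groups were matched by stage and not by date, so the effect of a spray cannot be told apart from that of the different calendar days on which the berries reached a stage.

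Carotenoids are made in plastids. Lycopene is the branch point: LECY closes an epsilon ring at one of its ends, which leads to alpha-carotene and lutein, whereas LBCY closes beta rings and leads to beta-carotene and the xanthophylls derived from it. LUT5, the cytochrome P450 CYP97A3 of Arabidopsis, hydroxylates the beta ring and LUT1, CYP97C1, the epsilon ring, and lutein needs the action of both types of enzyme. ZEP adds epoxide groups to zeaxanthin to give antheraxanthin and violaxanthin, and 9-cis-epoxycarotenoid dioxygenases (NCED) cut the 9-cis epoxycarotenoids downstream of them on the way to ABA. Carotenoid cleavage dioxygenases (CCD) cut carotenoids to norisoprenoids, the C-13 aroma compounds of the grape.

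The annotation of the table supported the names of the 6 genes unequally. LECY (VIT_211s0016g01880) lay on the minus strand of chromosome 11 at 1519113 to 1526396, LBCY (VIT_208s0007g05690) on the minus strand of chromosome 8 at 19617113 to 19620828, LUT5 (VIT_204s0023g00080) on the plus strand of chromosome 4 at 15933774 to 15957553 and LUT1 (VIT_208s0007g04530) on the minus strand of chromosome 8 at 18449431 to 18457877. The RNA-seq methods of the study name the CRIBI grape genome without a version, and the version named for its DAP-seq is not stated to hold for these coordinates. In these 4 genes all protein database matches gave the same enzyme, with UniProt match scores between 609 and 878. The ZEP locus on chromosome 13 (VIT_213s0156g00350, here ZEP-chr13, minus strand, 24064479 to 24072831) had a UniProt and a KEGG match to zeaxanthin epoxidase, with a UniProt score of 66.6, but its protein domain was a bromodomain, which is known from proteins that bind acetylated histones. The ZEP locus on unplaced sequence (VIT_200s0533g00020, here ZEP-Un, minus strand, 31459709 to 31463832) matched zeaxanthin epoxidase in UniProt with a score of 94 and held an FAD-binding domain, as monooxygenases of this kind do, while its KEGG entry was a bacterial quinolone synthase. Both loci are therefore described as annotated, and their enzyme activity is not known from these data.

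Both ZEP loci also overlapped a gene on the other strand. ZEP-chr13 shared 3467 bases of its span with VIT_213s0156g00340, which stayed between 0 and 0.108 FPKM (fragments normalised to transcript length and library size). ZEP-Un shared 906 bases with VIT_200s0533g00010, which lay between 8.69 and 31.7 FPKM. Whether strand was used in counting is not given in the sources used here, so fragments from a shared stretch cannot be told apart.

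The libraries held 25.6 M to 28.7 M fragments each, and the mean correlation of a library with the others of its group was at least 0.967. All 6 genes described here were among the 17598 genes with at least 1 FPKM in at least 3 libraries. FPKM values were turned into log2(FPKM + 1) and compared by limma across these 17598 genes. A gene is said to have risen or fallen where the p-value adjusted over all these genes was at most 0.01, and it was called where the log2 fold change also was at least 1 in size. The 1 added to the FPKM understates the change of low genes, so the fold of the mean FPKM is given as well. The study's methods call the replicates biological, and which plot each came from is not given in the sources used here. In a bulk pericarp, fewer cells of a type and less RNA per cell cannot be told apart. Chlorophyll a-b binding proteins, used as markers of green tissue (18 genes), summed to 87.6 to 136 FPKM in NAA100 berries at E-L 36, against 160 to 202 FPKM in Control berries. Of the 16 tested, 7 were called lower and 2 higher there, where 19.9% of all tested genes were called in either direction. At the other stages the sum was higher in NAA100 berries. It was 943 to 1097 FPKM against 373 to 490 FPKM in Control berries at E-L 34, and 572 to 845 against 279 to 404 FPKM at E-L 35. At E-L 38 it was 88.5 to 119 against 63.1 to 78.2 FPKM. The part of these differences in the results below was not tested. Seed storage and oil body genes (24 genes), of which the deseeded samples should hold little, summed to 120, 693 and 1984 FPKM in NAA100 berries, 180, 2461 and 165 FPKM in ABA1000 berries and 127, 124 and 429 FPKM in Control berries at E-L 35. They reached 1460 FPKM in ABA1000 replicate 3 at E-L 34. In the remaining groups the highest sum was 637 FPKM, in Control replicate 2 at E-L 36, where replicates 1 and 3 had 134 and 183 FPKM. Results without this library are given below for LECY, LBCY and ZEP-chr13. The part of these sums in the results was not tested, and the values without single libraries are given where a call changed. The skin colour regulator MYBA1 reached up to 13.9 FPKM but only 0.119 FPKM or less in NAA100 berries at E-L 34, against 1.39 to 3.26 FPKM in Control berries. At E-L 36 the order was the other way, with 4.52 to 8.02 FPKM in NAA100 berries and 2.56 to 3.89 FPKM in Control berries. The skin glucosyltransferase UFGT was at or near 0 in all groups and overlapped another gene over 2220 bases.

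The 6 genes differed in level and in how far they varied. LUT5 was the highest of them per length, with group means of 16.5 to 28.7 FPKM, a range of 1.73-fold. LBCY, with 5.82 to 12.8 FPKM, and LUT1, with 3.37 to 10.1 FPKM, were intermediate and varied 2.20-fold and 2.99-fold. ZEP-chr13 lay at 1.03 to 3.95 FPKM and ZEP-Un at 1.62 to 3.89 FPKM. LECY was the lowest and the most variable, with group means of 0.262 to 3.48 FPKM, a range of 13.3-fold. Its lowest library, a Control replicate at E-L 36, rested on 13 fragments (exact Poisson 95% interval 6.92 to 22.2, counting error only), whereas no LUT5 value rested on fewer than 1264.

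**Figure D1:**
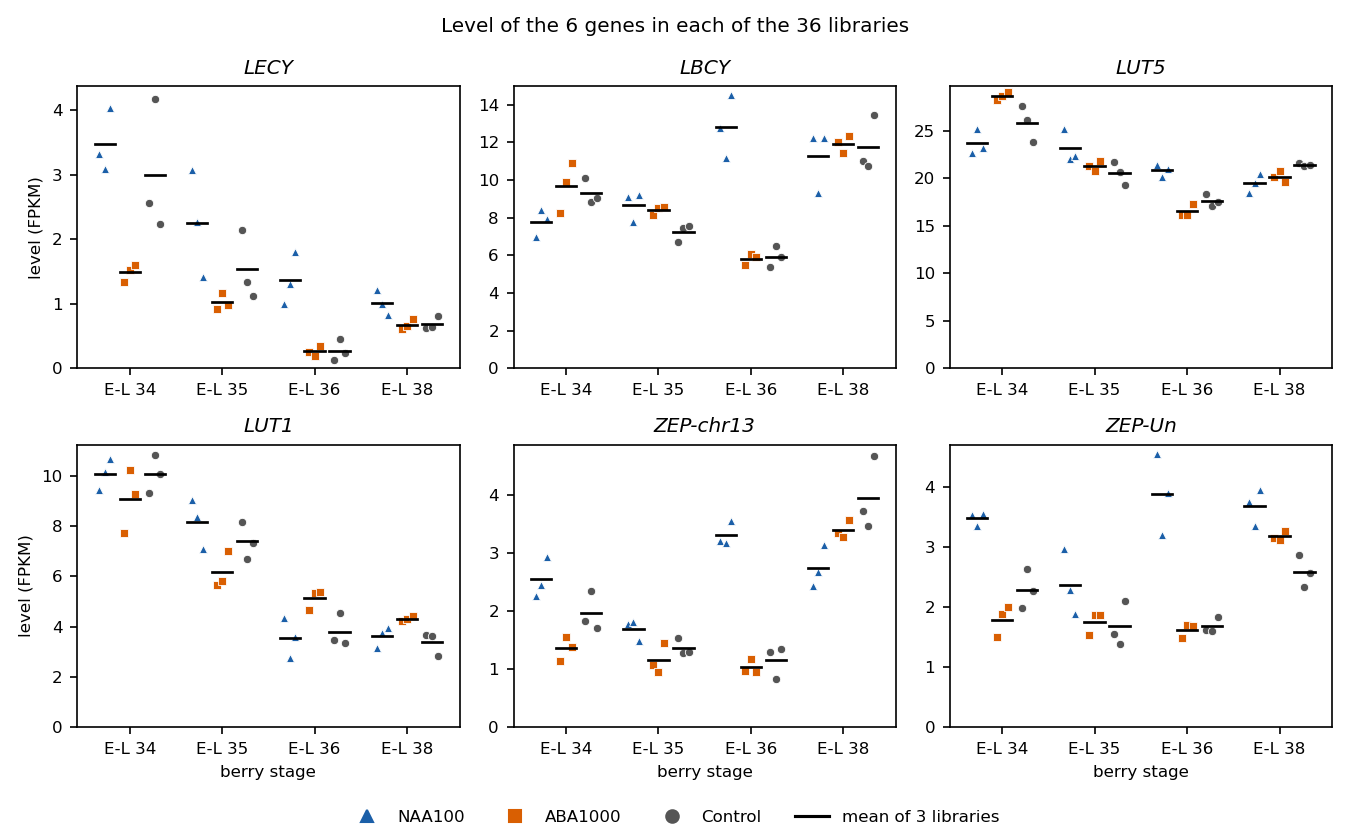
FPKM of the 6 genes in each of the 36 libraries, 1 panel per gene, by E-L stage on the x axis and coloured by treatment; points are libraries and bars the means of 3. At E-L 36 the 3 NAA100 libraries of LBCY, 11.2 to 14.5 FPKM, lie above all ABA1000 and Control libraries of that stage, while LUT1 is at 5.36 FPKM or less in all libraries of the last 2 stages.

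LECY was high early and lowest at E-L 36 in ABA1000 and Control berries, and higher at E-L 36 in NAA100 berries. At that stage it had 0.994, 1.31 and 1.80 FPKM in NAA100 berries, against 0.132, 0.453 and 0.229 FPKM in Control berries, a 5.06-fold higher mean. All 3 NAA100 values lay above all Control values, and the gene rose by 0.89 on the log2(FPKM + 1) scale (SE 0.17, adjusted p = 4.07e-05), short of the fold limit. LECY was called there with 0.1 FPKM added (2.04), with TPM (1.26), with quantile normalization (1.06), without NAA100 replicate 1 (1.01) and by limma-voom on recovered fragments (2.45). In the other stages NAA100 berries had 3.31, 3.09 and 4.04 FPKM at E-L 34, 3.07, 2.27 and 1.41 FPKM at E-L 35, and 1.21, 0.993 and 0.823 FPKM at E-L 38. These differed from Control berries by 0.19, 0.35 and 0.25 on the log2 scale, all with adjusted p above 0.1. Unlike in the other treatments, no step between neighbouring stages passed the p limit for LECY in NAA100 berries. The direct test of whether the E-L 36 against E-L 35 step differed between NAA100 and Control berries depended on the scale: the difference was 0.54 with 1 FPKM added (adjusted p = 0.0519), but it passed and was called with 0.1 FPKM added (1.53, adjusted p = 0.00221) and by limma-voom (1.91, adjusted p = 0.00509).

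In ABA1000 berries LECY had 1.33, 1.52 and 1.60 FPKM at E-L 34, 0.923, 1.17 and 0.979 FPKM at E-L 35, 0.256, 0.194 and 0.338 FPKM at E-L 36, and 0.602, 0.658 and 0.762 FPKM at E-L 38. At E-L 34 all 3 values were below those of Control berries, a log2 difference of -0.65 (95% interval -0.99 to -0.32) that missed the limit (adjusted p = 0.0166). The treatments overlapped at the other stages. The fall at E-L 36 against E-L 35 in ABA1000 berries was 3.9-fold in the means (log2 -0.68, SE 0.17, adjusted p = 0.00288). It was lost without ABA1000 replicate 2 at E-L 35 and without ABA1000 replicate 1 or 2 at E-L 36, with adjusted p of up to 0.014, and was called with 0.1 FPKM added (-1.65) and by limma-voom (-1.97).

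In Control berries LECY had 2.56, 4.17 and 2.24 FPKM at E-L 34, 2.14, 1.33 and 1.12 FPKM at E-L 35, 0.132, 0.453 and 0.229 FPKM at E-L 36, and 0.631, 0.634 and 0.808 FPKM at E-L 38. The libraries of E-L 36 were all below those of the other 3 stages. LECY fell at E-L 36 against E-L 35 by 0.98 on the log2 scale in Control berries (SE 0.17, adjusted p = 5.2e-05), a 5.66-fold lower mean. It fell just short of the fold limit there, and was called when Control replicate 2 or 3 at E-L 35 or Control replicate 2 at E-L 36 was left out, with 0.1 FPKM added (-2.18), with TPM (-1.38) and by limma-voom (-2.60).

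The beta cyclase LBCY ran a different course. In NAA100 berries its highest mean stood at E-L 36. There the gene had 12.8, 11.2 and 14.5 FPKM in NAA100 berries, against 5.36, 6.50 and 5.89 FPKM in Control berries. The groups were apart, with a 2.17-fold higher mean in NAA100 berries. The log2 fold change was 1.0 (SE 0.11, 95% interval 0.79 to 1.2, adjusted p = 3.83e-09), just under the fold limit, and LBCY was therefore not called. Without NAA100 replicate 2 it was called, with 1.08, and without Control replicate 2, with 1.06, as it was with 0.1 FPKM added (1.1), with TPM (1.13) and by limma-voom (1.11). At the other stages LBCY had 6.96, 8.39 and 7.93 FPKM at E-L 34, 9.08, 7.78 and 9.21 FPKM at E-L 35, and 12.2, 9.31 and 12.2 FPKM at E-L 38 in NAA100 berries. The differences from Control berries there lay between -0.24 and 0.23 on the log2 scale and did not pass the limit. The effect at E-L 36 exceeded that at E-L 35 by 0.76 (SE 0.15, adjusted p = 9.04e-05), and the effect at E-L 38 was lower than that at E-L 36 (-1.06, SE 0.15, adjusted p = 1.16e-06).

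In ABA1000 berries, LBCY had 8.25, 9.90 and 10.9 FPKM at E-L 34. It had 5.49, 6.06 and 5.91 FPKM at E-L 36, against 8.16, 8.52 and 8.58 FPKM at E-L 35, and fell by 0.47 on the log2 scale (adjusted p = 0.00127), which was lost with 2 other scalings. It had 12, 11.4 and 12.4 FPKM at E-L 38 and rose by 0.92 against E-L 36 (adjusted p = 1.43e-08). In Control berries LBCY had 10.1, 8.82 and 9.04 FPKM at E-L 34, 6.71, 7.45 and 7.53 FPKM at E-L 35, 5.36, 6.50 and 5.89 FPKM at E-L 36, and 11, 10.8 and 13.5 FPKM at E-L 38. Every library of E-L 38 was above every library of the earlier stages. The rise at E-L 38 against E-L 36 was 0.88 on the log2 scale (SE 0.11, adjusted p = 4.34e-08), a 1.98-fold higher mean.

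LECY made up a smaller part of the cyclase transcripts in riper berries. Of the summed FPKM of both cyclases, its share was 31.0% ± 3.59 at E-L 34, 20.4% ± 6.32 at E-L 35, 9.58% ± 2.07 at E-L 36 and 8.32% ± 1.77 at E-L 38 in NAA100 berries (SD, n = 3 each). In ABA1000 berries it was 13.4% ± 0.562, 10.8% ± 1.08, 4.32% ± 1.16 and 5.34% ± 0.530 at the same 4 stages, and in Control berries 24.1% ± 6.99, 17.5% ± 5.96, 4.21% ± 2.10 and 5.55% ± 0.128. At E-L 36 the shares of single NAA100 libraries were 7.22%, 10.5% and 11%, against 2.40%, 6.51% and 3.74% in Control berries, with no overlap. The log2 ratio of LECY to LBCY, each with 1 FPKM added, was -2.10 ± 0.105 in ABA1000 berries and -1.40 ± 0.412 in Control berries at E-L 34 (difference -0.70), and -2.22 ± 0.0760 in ABA1000 berries and -1.72 ± 0.376 in Control berries at E-L 35 (difference -0.50), without overlap. Leaving out 1 library gave differences of -0.82 to -0.46 at E-L 34 and -0.64 to -0.29 at E-L 35. Neither passed: the exact two-sided permutation test of 3 against 3 cannot give less than p = 0.1, which both reached, and over the 8 comparisons the adjusted p was 0.4. At E-L 36 the ratio was -2.55 ± 0.208 in NAA100 berries and -2.45 ± 0.0699 in Control berries, and its sign depended on the value added: the difference was -0.10 with 1 FPKM added and 0.94 with 0.1 FPKM added.

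**Figure D2:**
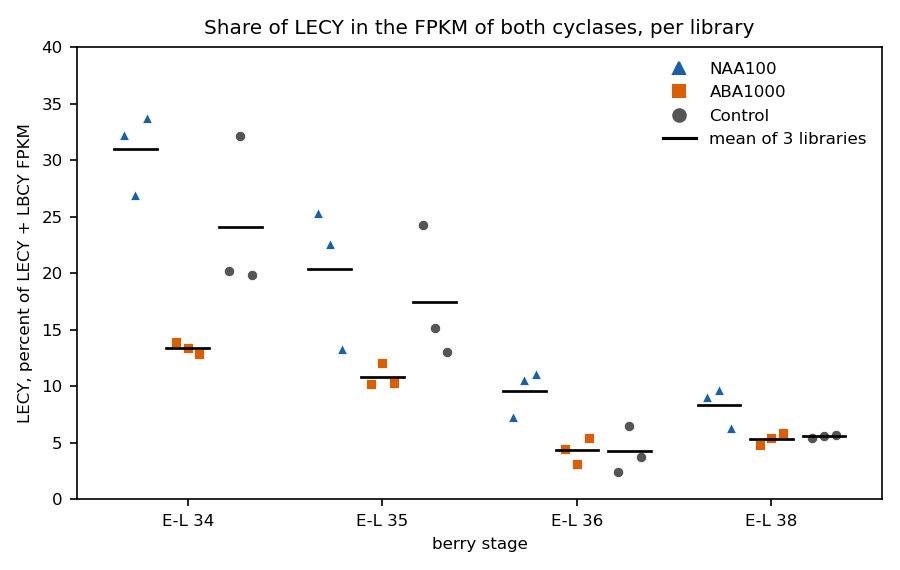
LECY as a percentage of the summed FPKM of LECY and LBCY in each library, by E-L stage and treatment; points are libraries and bars the means of 3. The share falls from E-L 34 to E-L 36 in all treatments, and the NAA100 libraries at E-L 36, 7.22% to 11%, lie above the Control libraries, 2.40% to 6.51%.

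Against Control berries the hydroxylases passed the p limit in 1 comparison with a spray, LUT5 in NAA100 berries at E-L 36. In NAA100 berries LUT5, the beta-ring hydroxylase, had 22.7, 25.2 and 23.2 FPKM at E-L 34, 25.2, 22.0 and 22.3 FPKM at E-L 35, 21.4, 20.1 and 21.0 FPKM at E-L 36, and 18.5, 19.6 and 20.4 FPKM at E-L 38. At E-L 36 all 3 were above the 18.3, 17.1 and 17.5 FPKM of Control berries, and LUT5 rose by 0.23 (SE 0.06, adjusted p = 0.00115), a 1.18-fold higher mean. This small difference was lost with median-of-ratios scaling (0.11, adjusted p = 0.102), with quantile normalization and with the 6 libraries of the comparison fitted alone.

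In ABA1000 berries LUT5 had 28.2, 28.7 and 29.1 FPKM at E-L 34, 21.4, 20.7 and 21.9 FPKM at E-L 35, 16.1, 16.1 and 17.4 FPKM at E-L 36, and 20.2, 20.8 and 19.6 FPKM at E-L 38. It fell at E-L 35 (-0.41, adjusted p = 0.00062, lost with the libraries of the comparison alone) and at E-L 36 (-0.35, adjusted p = 5.13e-05, lost with 2 other scalings), each against the stage before, and rose at E-L 38 against E-L 36 (0.27, adjusted p = 0.000166), where the median-of-ratios scaling turned the sign (-0.07) and quantile normalization also ended the pass. In Control berries LUT5 had 27.7, 26.1 and 23.9 FPKM at E-L 34, 21.8, 20.7 and 19.4 FPKM at E-L 35, 18.3, 17.1 and 17.5 FPKM at E-L 36, and 21.6, 21.3 and 21.4 FPKM at E-L 38. E-L 36 was its lowest stage there, below all libraries of the other stages. It fell by 0.32 on the log2 scale at E-L 35 against E-L 34 (adjusted p = 0.000275, lost with the libraries of the comparison alone), and by 0.21 at E-L 36 against E-L 35 (adjusted p = 0.00515), and rose by 0.27 at E-L 38 against E-L 36 (adjusted p = 0.000232). The last 2 of these steps were lost when libraries were scaled by median of ratios (log2 -0.01 and 0.07) and with quantile normalization, and that at E-L 36 also with the libraries of the comparison alone and without Control replicate 1 or 2 at E-L 35 or Control replicate 2 or 3 at E-L 36.

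LUT1, the epsilon-ring hydroxylase, fell at E-L 36 against E-L 35 in NAA100 and Control berries. NAA100 berries had 9.43, 10.2 and 10.7 FPKM at E-L 34, 9.02, 8.37 and 7.09 FPKM at E-L 35, 4.34, 2.74 and 3.58 FPKM at E-L 36, and 3.16, 3.75 and 3.95 FPKM at E-L 38. Their step at E-L 36 against E-L 35 was called (-1.02, SE 0.12, adjusted p = 2.38e-08), and the libraries of these stages did not overlap. The call was lost without NAA100 replicate 2 at E-L 36 (-0.88), or without replicate 1 (-0.95) or 2 (-1.0) at E-L 35, and with median-of-ratios scaling (-0.95) and quantile normalization (-0.78), with the p limit still passed each time. LUT1 was the 1 gene of the 6 that did not pass the p limit in NAA100 against Control berries at E-L 36 (-0.08, 95% interval -0.32 to 0.16, adjusted p = 0.585).

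In ABA1000 berries LUT1 had 7.74, 10.2 and 9.26 FPKM at E-L 34, 5.64, 5.82 and 7.0 FPKM at E-L 35, 4.68, 5.35 and 5.36 FPKM at E-L 36, and 4.22, 4.29 and 4.41 FPKM at E-L 38. At these last 2 stages the ABA1000 values were all above those of Control berries. The log2 differences of 0.36 (adjusted p = 0.048) and 0.28 (adjusted p = 0.135) missed the limit. In Control berries LUT1 had 9.34, 10.8 and 10.1 FPKM at E-L 34, 8.18, 6.69 and 7.32 FPKM at E-L 35, 3.47, 4.56 and 3.33 FPKM at E-L 36, and 3.68, 3.61 and 2.83 FPKM at E-L 38. The step at E-L 36 against E-L 35 was -0.82 on the log2 scale (SE 0.12, adjusted p = 8.41e-06), a 1.95-fold lower mean.

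In NAA100 berries ZEP-chr13 had 2.25, 2.44 and 2.93 FPKM at E-L 34, 1.77, 1.81 and 1.49 FPKM at E-L 35, 3.21, 3.17 and 3.55 FPKM at E-L 36, and 2.43, 2.68 and 3.13 FPKM at E-L 38. Its highest values stood at E-L 36, where Control berries had 1.29, 0.832 and 1.34 FPKM, and the groups were well apart. ZEP-chr13 was called there (1.01, SE 0.11, 95% interval 0.78 to 1.23, adjusted p = 1.07e-08), with a 2.86-fold higher mean in NAA100 berries. The call was lost without Control replicate 2 (0.89), without NAA100 replicate 3 (0.97) and with median-of-ratios scaling (0.94), with the p limit still passed each time. At E-L 38 the NAA100 values were below all Control values, a log2 difference of -0.40 that just missed the limit (adjusted p = 0.011). The effect of NAA at E-L 36 exceeded that at E-L 35 by 0.82 (SE 0.16, adjusted p = 8.04e-05), and that at E-L 38 was lower than that at E-L 36 (-1.40, SE 0.16, adjusted p = 3.64e-08). The overlapping gene on the other strand had 0 to 0.108 FPKM and was annotated with a bromodomain, as ZEP-chr13 was. Of its 3562 bases, 3467 lie within the span of ZEP-chr13. Its low value therefore does not show that it was silent, since fragments from the shared stretch cannot be told apart.

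In ABA1000 and Control berries ZEP-chr13 was low up to E-L 36 and high at E-L 38. In ABA1000 berries it had 1.14, 1.56 and 1.37 FPKM at E-L 34, 1.06, 0.946 and 1.45 FPKM at E-L 35, 0.974, 1.17 and 0.945 FPKM at E-L 36, and 3.35, 3.27 and 3.56 FPKM at E-L 38. In Control berries it had 1.83, 2.35 and 1.7 FPKM at E-L 34, 1.53, 1.28 and 1.3 FPKM at E-L 35, 1.29, 0.832 and 1.34 FPKM at E-L 36, and 3.73, 3.46 and 4.67 FPKM at E-L 38. The libraries of E-L 38 lay above all earlier ones in both treatments. The step at E-L 38 against E-L 36 was called in both, at 1.12 in ABA1000 berries (SE 0.11, adjusted p = 1.52e-09), a 3.30-fold higher mean, and at 1.2 in Control berries (SE 0.11, adjusted p = 5.2e-10), a 3.42-fold higher mean.

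ZEP-Un was higher in NAA100 berries at 2 stages. At E-L 34 it had 3.54, 3.36 and 3.55 FPKM in NAA100 berries, against 1.98, 2.63 and 2.27 FPKM in Control berries, and at E-L 36 4.55, 3.20 and 3.91 FPKM in NAA100 berries, against 1.62, 1.61 and 1.83 FPKM in Control berries. The groups did not overlap at either stage. ZEP-Un rose by 0.86 at E-L 36 (SE 0.11, adjusted p = 1.86e-07), a 2.31-fold higher mean, and by 0.45 at E-L 34 (SE 0.11, adjusted p = 0.00353), a 1.52-fold higher mean. The difference at E-L 36 was called with 0.1 FPKM added (1.15), with TPM (1.05) and by limma-voom (1.19). The difference at E-L 34 was past the limit in only 8 of 15 alternatives. It was lost without NAA100 replicate 1 or 3, without Control replicate 1 or 3, with 2 other scalings, and with the libraries of the comparison alone.

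At E-L 35 ZEP-Un had 2.97, 2.28 and 1.89 FPKM in NAA100 berries and 1.56, 1.38 and 2.11 FPKM in Control berries, and at E-L 38 3.75, 3.35 and 3.96 FPKM in NAA100 berries and 2.87, 2.33 and 2.58 FPKM in Control berries. The log2 differences of 0.33 (adjusted p = 0.0339) and 0.38 (adjusted p = 0.0143) missed the limit. The gene on the other strand, VIT_200s0533g00010, went the other way: at E-L 36 it had 10.1 ± 1.21 FPKM in NAA100 berries and 18.9 ± 3.23 FPKM in Control berries (SD, n = 3 each; log2 -0.84, adjusted p = 3.15e-05). In ABA1000 berries ZEP-Un had 1.5, 1.89 and 2.0 FPKM at E-L 34, 1.54, 1.86 and 1.86 FPKM at E-L 35, 1.48, 1.7 and 1.69 FPKM at E-L 36, and 3.16, 3.12 and 3.28 FPKM at E-L 38. Its step at E-L 38 against E-L 36 was 0.67 in ABA1000 berries (adjusted p = 7.18e-06) and 0.42 in Control berries (adjusted p = 0.00209). The step in Control berries was lost with 2 other scalings and without Control replicate 1 at E-L 38.

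**Figure D3:**
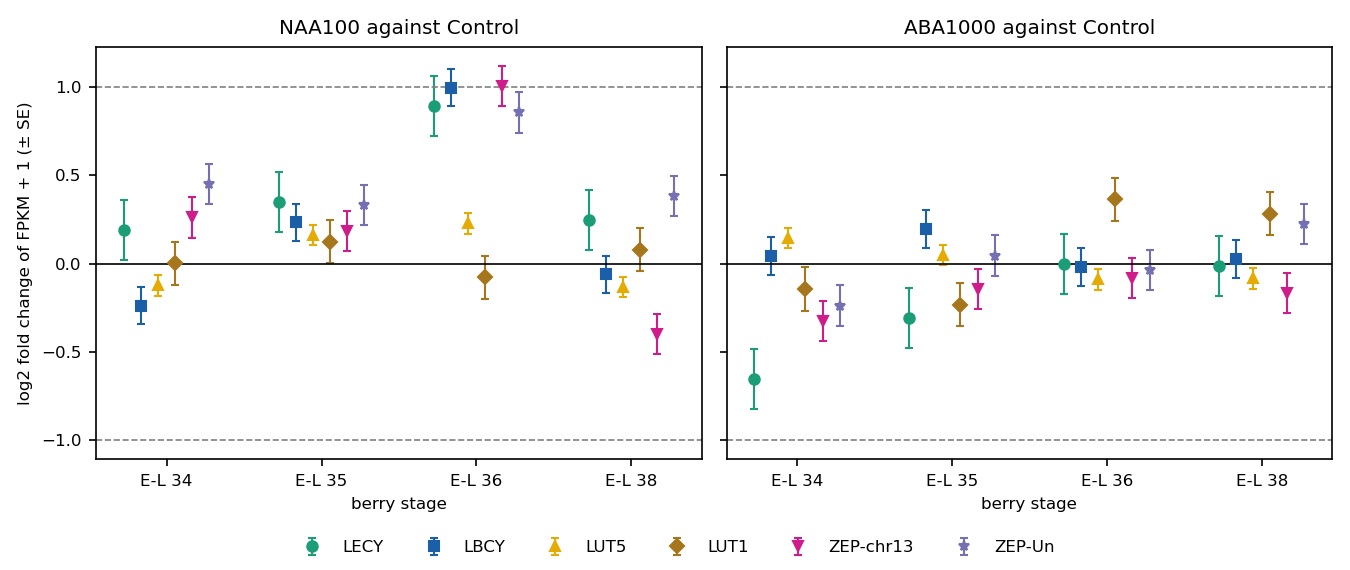
Log2 fold change of each gene against Control berries at the same E-L stage, on the log2(FPKM + 1) scale, for NAA100 and ABA1000; points are limma estimates and bars ± 1 SE. The ABA1000 points stay between -0.65 and 0.36, while at E-L 36 the NAA100 points of LECY, LBCY and both ZEP loci stand at 0.86 to 1.01.

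Counted by comparison, the single call of a spray against Control stood at E-L 36. In NAA100 against Control berries at E-L 36, 1 of the 6 genes was called, where 19.9% of all tested genes were called and 59% passed the p limit. Of the 6, 5 rose and none fell at the p limit alone, where 34.4% of all tested genes rose and 24.6% fell, and the same 5 did not overlap, where 41.7% of all genes were higher without overlap. The median log2 fold change was 0.87 over the 6 genes and 0.09 over all tested genes. Limma-voom on recovered fragments called 4 of 6 there, and 28.4% of all tested genes. At E-L 34, 35 and 38 limma called 0 of 6 in NAA100 berries, where 3.79%, 2.44% and 3.42% of all tested genes were called and 18.6%, 12.8% and 14% passed the p limit. At an unadjusted p below 0.05, 4, 3 and 3 of the 6 passed at these stages, and limma-voom called 0 at each. Here and below, the share of all tested genes at an unadjusted p below 0.05 is not given. Counts at that limit therefore cannot be read as particular to the 6 genes, nor set beside the shares at the adjusted limit.

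ABA1000 against Control berries gave no call: limma called 0 of the 6 genes, and 0 passed the p limit, at each of E-L 34, 35, 36 and 38, where 0.688%, 1.45%, 0.665% and 0.648% of all tested genes were called and 2.44%, 9.47%, 4.82% and 3.76% passed the p limit. At an unadjusted p below 0.05 the counts were 4, 0, 1 and 1 of 6, and limma-voom also called 0 at each stage. The 4 genes at E-L 34 were LECY (-0.65), LUT5 (0.14), ZEP-chr13 (-0.33) and ZEP-Un (-0.24).

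Between NAA100 and ABA1000 berries, LBCY and ZEP-chr13 were called higher in NAA100 berries at E-L 36, 2 of the 6 genes, where 24.7% of all tested genes were called and 64% passed the p limit. LBCY was at 12.8, 11.2 and 14.5 FPKM in NAA100 berries against 5.49, 6.06 and 5.91 FPKM in ABA1000 berries (1.01, SE 0.11, adjusted p = 1.99e-09). ZEP-chr13 was at 3.21, 3.17 and 3.55 FPKM in NAA100 berries against 0.974, 1.17 and 0.945 FPKM in ABA1000 berries (1.09, SE 0.11, adjusted p = 1.87e-09). Both calls were lost with median-of-ratios scaling (0.82 and 0.98), and that of LBCY also with quantile normalization (0.87) and without NAA100 replicate 3 (0.93) or ABA1000 replicate 1 (0.98). LECY (0.90), ZEP-Un (0.89) and LUT5 (0.32) rose as well, the last lost with median-of-ratios scaling. LUT1 went the other way, with 4.34, 2.74 and 3.58 FPKM in NAA100 berries and 4.68, 5.35 and 5.36 FPKM in ABA1000 berries, a fall of 0.44 (SE 0.12, adjusted p = 0.00212) that was lost without NAA100 replicate 2, ABA1000 replicate 2 or ABA1000 replicate 3, with TPM, and with the libraries of the comparison alone.

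At E-L 34, 0 of the 6 genes were called by limma between NAA100 and ABA1000 berries, where 8.75% of all tested genes were and 37.1% passed the p limit, with 5 of 6 at an unadjusted p below 0.05 and 1 called by limma-voom, which called 13.4% of all tested genes. LECY had 3.31, 3.09 and 4.04 FPKM in NAA100 berries against 1.33, 1.52 and 1.60 FPKM in ABA1000 berries and rose by 0.85 (adjusted p = 0.000182), a 2.34-fold higher mean. ZEP-Un (0.69, adjusted p = 1.79e-05) and ZEP-chr13 (0.59, adjusted p = 0.000119, lost with quantile normalization) rose too, and LUT5 fell (-0.27, adjusted p = 0.000468, lost with TPM). The passes of ZEP-chr13 and LUT5 were lost with the libraries of the comparison alone as well. At E-L 35, 0 of 6 were called by limma, where 2.15% of all tested genes were and 7.45% passed the p limit, with 4 at an unadjusted p below 0.05 and 0 called by limma-voom. LECY, the 1 gene of the 6 that passed the p limit there (0.65, adjusted p = 0.00933), passed it in only 3 of 15 alternatives, and not with the replicate number as a block (adjusted p = 0.0122). At E-L 38, 0 of 6 were called by limma, where 2.25% of all tested genes were and 16% passed the p limit, with 1 at an unadjusted p below 0.05 and 0 called by limma-voom. The NAA100 and ABA1000 comparisons with Control berries share the Control libraries.

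Between neighbouring stages, the cyclase LBCY and both ZEP loci rose in NAA100 berries at E-L 36 against E-L 35, whereas in Control and ABA1000 berries they rose at E-L 38 against E-L 36. In NAA100 berries at E-L 36 against E-L 35, 1 of the 6 genes was called (LUT1), where 27.6% of all tested genes were called and 65.6% passed the p limit. ZEP-chr13 (0.68, adjusted p = 5.61e-06), ZEP-Un (0.54, adjusted p = 0.000132, lost with the libraries of the comparison alone) and LBCY (0.51, adjusted p = 0.000108) rose. At E-L 38 against E-L 36, 1 of 6 was called in ABA1000 berries (19.3% of all tested genes, 60.1% at the p limit) and 1 of 6 in Control berries (17.2%, and 56.1% at the p limit), ZEP-chr13 in both. In NAA100 berries 0 of 6 were called by limma at that step, 0 at an unadjusted p below 0.05 and 0 by limma-voom, where 0.0114% of all tested genes were called and 0.0455% passed the p limit. With median-of-ratios scaling the median over all genes of the E-L 38 against E-L 36 step moved by -0.27 in ABA1000 berries and by -0.16 in Control berries, and ZEP-chr13 was then 0.90 in ABA1000 berries, below the fold limit, as it was with quantile normalization (0.94).

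At E-L 36 against E-L 35, limma called 0 of 6 in ABA1000 berries (3.65% of all tested genes, 21% at the p limit) and 0 of 6 in Control berries (4.66%, and 27.9% at the p limit), with 3 and 4 at an unadjusted p below 0.05 and 1 called by limma-voom in each, which called 5.6% of all tested genes in ABA1000 berries and 8.25% in Control berries. At E-L 35 against E-L 34, limma called 0 of 6 in NAA100 berries (3.3% of all tested genes, 20.7% at the p limit), ABA1000 berries (0.125%, and 0.477% at the p limit) and Control berries (2.7%, and 16.8% at the p limit), with 4, 2 and 6 at an unadjusted p below 0.05 and 0 called by limma-voom in each. In Control berries LECY fell at that step, with 2.14, 1.33 and 1.12 FPKM at E-L 35 against 2.56, 4.17 and 2.24 FPKM at E-L 34 (-0.65, adjusted p = 0.00545), a difference lost without Control replicate 2 at E-L 34 or Control replicate 2 or 3 at E-L 35, with 0.1 FPKM added, with quantile normalization, and with the libraries of the comparison alone. In NAA100 berries ZEP-Un (-0.42, adjusted p = 0.00555) and ZEP-chr13 (-0.39, adjusted p = 0.00883) fell at it and passed in only 7 and 5 of 15 alternatives.

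The change of the NAA effect between stages was tested directly. At E-L 36 against E-L 35, 0 of the 6 genes were called by limma, where 22.9% of all tested genes were and 49.4% passed the p limit, but LBCY, ZEP-chr13 and ZEP-Un (0.53, SE 0.16, adjusted p = 0.00629, past the limit in only 10 of 21 alternatives) passed the p limit upward, with 4 at an unadjusted p below 0.05 and 2 called by limma-voom, which called 28.2% of all tested genes. At E-L 38 against E-L 36, 2 of 6 were called downward (LBCY and ZEP-chr13), where 19.5% of all tested genes were called in either direction and 46.1% passed the p limit, and LUT5 passed the p limit downward (-0.36, SE 0.08, adjusted p = 0.000553, lost with 2 other scalings). The call of LBCY was lost, with the p limit still passed, with median-of-ratios scaling (-0.86) and quantile normalization (-0.84), and without NAA100 replicate 3 at E-L 36 (-0.97), NAA100 replicate 2 at E-L 38 (-0.94), Control replicate 1 at E-L 36 (-0.998) or Control replicate 3 at E-L 38 (-0.96). At E-L 35 against E-L 34, 0 of 6 were called by limma, where 2.48% were and 8.48% passed the p limit, with 2 at an unadjusted p below 0.05 and 0 by limma-voom. For ABA, 0 of 6 changes of effect were called by limma or limma-voom between any neighbouring stages, with 0, 1 and 0 at an unadjusted p below 0.05, where 0.955%, 0.676% and 1.39% of all tested genes were called and 2.11%, 1.52% and 4.96% passed the p limit.

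NAA100 berries at E-L 36 were also set beside Control berries at E-L 38. This comparison was chosen after seeing the values of LBCY and ZEP-chr13, which are therefore given as a description, with no test. LBCY had 12.8, 11.2 and 14.5 FPKM in NAA100 berries at E-L 36 and 11, 10.8 and 13.5 FPKM in Control berries at E-L 38 (log2 difference 0.12, 95% interval -0.09 to 0.33). ZEP-chr13 had 3.21, 3.17 and 3.55 FPKM in NAA100 berries at E-L 36 and 3.73, 3.46 and 4.67 FPKM in Control berries at E-L 38 (-0.19, 95% interval -0.42 to 0.03). The libraries overlapped in both genes. LUT5 (-0.04, 95% interval -0.15 to 0.08) and LUT1 (0.05, 95% interval -0.19 to 0.29) overlapped as well. ZEP-Un was higher in NAA100 berries, at 4.55, 3.20 and 3.91 FPKM against 2.87, 2.33 and 2.58 FPKM in Control berries (0.44, adjusted p = 0.006), and LECY, at 0.994, 1.31 and 1.80 FPKM in NAA100 berries against 0.631, 0.634 and 0.808 FPKM in Control berries, differed by 0.47 (adjusted p = 0.0454), which missed the limit. Over the 12 group means ZEP-Un ran with ZEP-chr13 (r = 0.86) and LBCY (r = 0.71). The adjusted p of ZEP-Un is therefore not free of the choice of this comparison. Of the other 4 genes, limma and limma-voom called 0 here, with 2 at an unadjusted p below 0.05, where 3.67% of all tested genes were called and 12.8% passed the p limit.

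**Figure D4:**
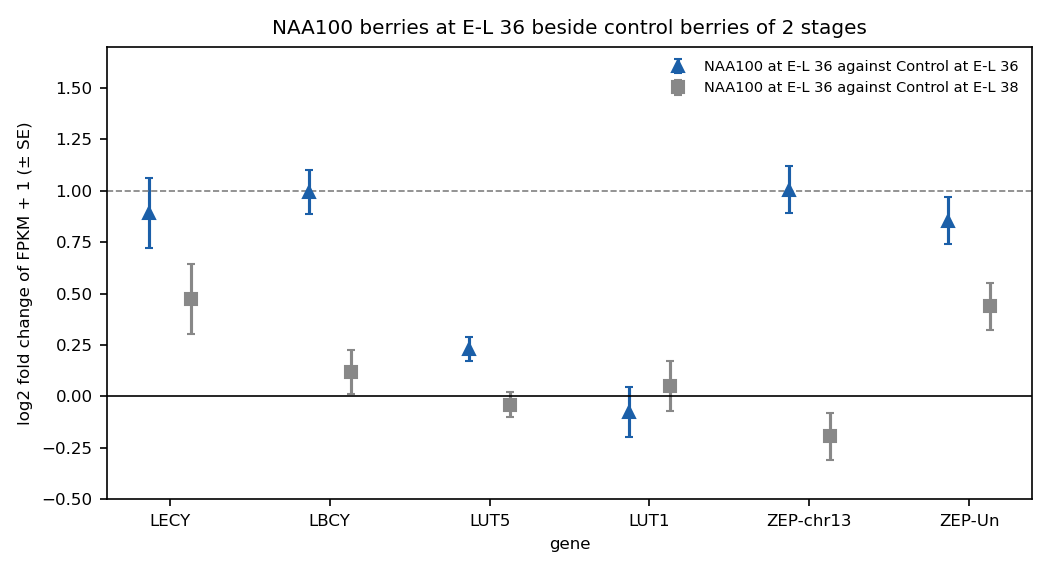
Log2 fold change, on the log2(FPKM + 1) scale, of NAA100 berries at E-L 36 against Control berries at E-L 36 and against Control berries at E-L 38, per gene; points are limma estimates and bars ± 1 SE. LBCY stands at 1.0 against E-L 36 and 0.12 against E-L 38, and ZEP-chr13 at 1.01 and -0.19.

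Ordered by their means over the 12 groups, most neighbouring levels could not be separated. Groups next to each other were apart, with no overlap of their 3 libraries, in 2 of 11 neighbour pairs for LECY, 1 for LBCY, 3 for LUT5, 2 for LUT1, 1 for ZEP-chr13 and 2 for ZEP-Un. LECY went from NAA100 at E-L 34 (3.48 FPKM), through Control at E-L 34, NAA100 at E-L 35, Control at E-L 35, ABA1000 at E-L 34, NAA100 at E-L 36 and ABA1000 at E-L 35 to NAA100 at E-L 38 (1.01 FPKM) with each pair overlapping. Below a gap came Control and ABA1000 at E-L 38 (0.691 and 0.674 FPKM), and below another gap Control and ABA1000 at E-L 36 (0.271 and 0.262 FPKM). For LBCY the single gap lay between the 10 higher groups, from NAA100 at E-L 36 (12.8 FPKM), ABA1000, Control and NAA100 at E-L 38, ABA1000 and Control at E-L 34, NAA100 and ABA1000 at E-L 35 and NAA100 at E-L 34 down to Control at E-L 35 (7.23 FPKM), and the 2 lowest, Control at E-L 36 (5.92 FPKM) and ABA1000 at E-L 36 (5.82 FPKM).

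For LUT5, ABA1000 at E-L 34 (28.7 FPKM) stood alone at the top. It was followed by Control and NAA100 at E-L 34 and NAA100 at E-L 35 (25.9 to 23.2 FPKM). Next came Control at E-L 38, ABA1000 at E-L 35, NAA100 at E-L 36, Control at E-L 35, ABA1000 at E-L 38 and NAA100 at E-L 38 (21.4 to 19.5 FPKM), and at the bottom Control and ABA1000 at E-L 36 (17.6 and 16.5 FPKM). LUT1 had the E-L 34 and E-L 35 groups on top, NAA100 at E-L 34 (10.1 FPKM), Control and ABA1000 at E-L 34, then NAA100, Control and ABA1000 at E-L 35 (6.16 FPKM). ABA1000 at E-L 36 (5.13 FPKM) stood apart from its neighbours on both sides, above ABA1000 at E-L 38 (4.30 FPKM), Control at E-L 36, NAA100 at E-L 38, NAA100 at E-L 36 and Control at E-L 38 (3.37 FPKM).

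For ZEP-chr13, Control and ABA1000 at E-L 38 and NAA100 at E-L 36 (3.95 to 3.31 FPKM) stood above a gap. Below it, NAA100 at E-L 38, NAA100 and Control at E-L 34, NAA100 and Control at E-L 35, ABA1000 at E-L 34, Control at E-L 36, ABA1000 at E-L 35 and ABA1000 at E-L 36 (2.75 to 1.03 FPKM) overlapped from each group to the next. For ZEP-Un, NAA100 at E-L 36, 38 and 34 (3.89 to 3.49 FPKM) stood on top. ABA1000 at E-L 38 (3.19 FPKM) came next, with a highest library of 3.28 FPKM, above the lowest NAA100 library at E-L 36 (3.20 FPKM), and lay above all libraries of the groups below it. The remaining 8 groups, from Control at E-L 38 (2.59 FPKM) through NAA100 at E-L 35, Control at E-L 34, ABA1000 at E-L 34, ABA1000 at E-L 35, Control at E-L 36 and Control at E-L 35 to ABA1000 at E-L 36 (1.62 FPKM), overlapped from each to the next.

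Over the 12 group means of log2(FPKM + 1), the genes fell along 2 kinds of course, given as a description since the groups share stages and treatments. LBCY correlated with ZEP-chr13 (r = 0.83) and ZEP-Un (r = 0.71), and the ZEP loci with each other (r = 0.86). LECY correlated with LUT1 (r = 0.77) and LUT5 (r = 0.76), and LUT5 with LUT1 (r = 0.69). Across these 2 sets the correlations were weaker, from -0.40 (LUT1 with ZEP-chr13) to 0.36 (LUT5 with LBCY), and LUT1 with LBCY had r = -0.30. Among the other tested genes, those most like each gene were as follows. LECY was matched by VIT_211s0037g00850, a clustered mitochondria protein homolog (r = 0.98), and VIT_202s0025g03410 (r = 0.97). LBCY was matched by VIT_209s0002g02430, an ABC transporter of family C, and VIT_208s0032g01140, a subunit of a vesicle trafficking complex (both r = 0.98). LUT5 was matched by VIT_200s1463g00010, a chloroplast protease of the Do type (r = 0.95), and VIT_216s0050g00610, a 60S ribosomal protein (r = 0.94). LUT1 was matched by VIT_208s0007g08990, which has no described function, and VIT_205s0020g01550, a mitochondrial isoleucine tRNA ligase (both r = 0.99). ZEP-chr13 was matched by VIT_212s0142g00670, a DEAD-box RNA helicase, and VIT_201s0011g01720 (both r = 0.99), and ZEP-Un by VIT_210s0003g04820, annotated as an enzyme of histidine synthesis, and VIT_201s0010g01740, annotated as a tobamovirus multiplication protein (both r = 0.97).

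The steps before lycopene were covered by 8 genes (4 named as phytoene synthase, PSY, and PDS, ZISO, ZDS and CRTISO, the desaturases and isomerases that make lycopene from phytoene). In NAA100 berries at E-L 36, 2 were called higher and 1 lower than in Control berries. Of all tested genes 19.9% were called there in either direction. PSY2 had 12.8 ± 2.93 FPKM in NAA100 berries and 3.51 ± 0.0590 FPKM in Control berries (1.59, adjusted p = 2.65e-08), and PSY3 3.28 ± 0.334 FPKM in NAA100 berries and 0.377 ± 0.185 FPKM in Control berries (1.64, adjusted p = 3.52e-11), each with SD and n = 3. The gene listed as PSY had 20.7 ± 3.37 FPKM in NAA100 berries and 56.3 ± 9.38 FPKM in Control berries (-1.40, adjusted p = 1.25e-12), but its database matches named it squalene synthase, an enzyme of sterol synthesis. CRTISO (0.48) and ZISO (0.40) rose without being called, so that 4 of 8 rose and 1 fell. Of all tested genes 34.4% rose and 24.6% fell there. The median of the 8 was 0.35, against 0.87 for the 6 genes described here and 0.09 for all tested genes. At E-L 34 in NAA100 berries PSY2 (-1.02, adjusted p = 0.000173) and ZDS (-1.09, adjusted p = 4.97e-06) were called lower, where 3.79% of all tested genes were called. At E-L 35 and E-L 38 none of the 8 was called, where 2.44% and 3.42% of all tested genes were. In ABA1000 berries none of the 8 was called at any stage, where 0.648% to 1.45% of all tested genes were.

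The steps after the xanthophylls were covered by 10 genes (3 NCED, 4 CCD, the abscisic aldehyde oxidase AAO and 2 ABA hydroxylases, which break ABA down). At E-L 36 in NAA100 berries 1 of the 10 was called higher and 1 lower, near the 19.9% of all tested genes called in either direction. The median log2 fold change of the 10 was 0.13 there. CCD4a had 110, 157 and 109 FPKM in NAA100 berries and 6.33, 4.93 and 4.92 FPKM in Control berries (4.29, adjusted p = 7.25e-10), and NCED3 7.66 ± 1.52 FPKM in NAA100 berries and 42.7 ± 19.0 FPKM in Control berries (-2.23, adjusted p = 2.1e-07). At E-L 34 CCD4a (3.59) and CCD4b (1.54) were called higher in NAA100 berries and NCED1 (-1.44), NCED2 (-1.48) and NCED3 (-1.95) lower. At E-L 35 NCED3 (1.42) and CCD4a (3.06) were higher and ABA-Hase-b (-1.32) lower, and at E-L 38 CCD4b (1.73) was higher. Of all tested genes 3.79%, 2.44% and 3.42% were called at these 3 stages. In ABA1000 berries NCED3 (1.92) was called higher and ABA-Hase-b (-1.16) lower at E-L 35, and CCD4a (-2.35) lower at E-L 36. Of all tested genes 1.45% and 0.665% were called there.

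**Figure D5:**
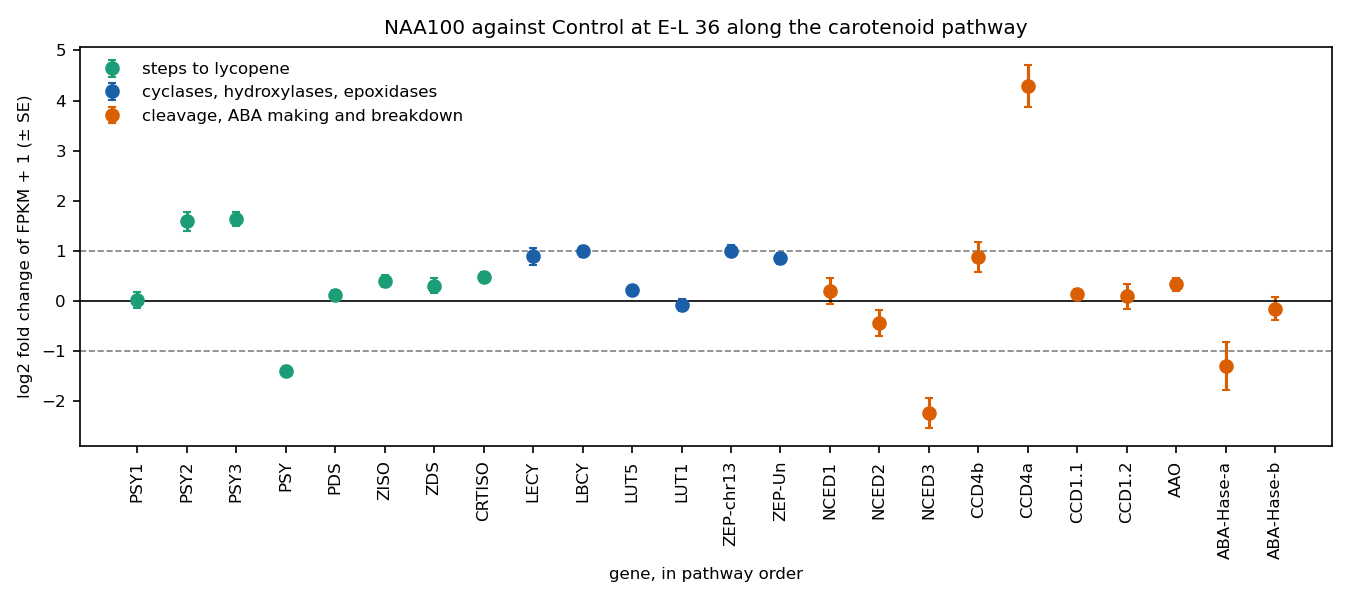
Log2 fold change of NAA100 against Control berries at E-L 36, on the log2(FPKM + 1) scale with bars of ± 1 SE, for the 24 carotenoid and ABA genes in pathway order: steps before lycopene, the 6 genes described here, and steps after the xanthophylls. CCD4a, at 4.29, and NCED3, at -2.23, mark the ends of the range, and the cyclases and ZEP loci lie between 0.86 and 1.01.

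A further 13 genes of the table carried an annotation as a lycopene cyclase, capsanthin/capsorubin synthase, carotene hydroxylase, zeaxanthin epoxidase or violaxanthin de-epoxidase, and 11 of them were tested. In NAA100 against Control berries 1 of the 11 was called at each stage. Of all tested genes 3.79%, 2.44%, 19.9% and 3.42% were called at E-L 34, 35, 36 and 38. At E-L 36, 0 of the 11 rose and 3 fell at the p limit, where 34.4% of all tested genes rose and 24.6% fell. The median log2 fold change of the 11 was -0.16 there, against 0.87 for the 6 genes described here. At E-L 34 the gene called was VIT_216s0050g01090, annotated as beta-carotene hydroxylase, the non-heme type of beta-ring hydroxylase that makes zeaxanthin. It had 26.2, 24.2 and 32.9 FPKM in NAA100 berries, against 6.83, 9.06 and 6.39 FPKM in Control berries (1.77, SE 0.21, adjusted p = 3.75e-07). It was called at E-L 35 too, with 24.7, 18.1 and 9.52 FPKM in NAA100 berries and 6.31, 4.99 and 5.09 FPKM in Control berries (1.42, adjusted p = 3.18e-05). The groups did not overlap at either stage. The other gene of this annotation, VIT_202s0025g00240, went the other way at E-L 34, with 1.82 ± 0.837 FPKM in NAA100 berries and 4.30 ± 0.174 FPKM in Control berries (-0.96, adjusted p = 0.00368).

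Of the genes annotated as ZEP, VIT_206s0009g01670, whose domain is a forkhead-associated domain, had 1.253, 0.926 and 0.772 FPKM in NAA100 berries at E-L 36 and 4.53, 6.22 and 5.74 FPKM in Control berries and was called (-1.71, adjusted p = 3.63e-10). At E-L 35 it had risen (0.92, adjusted p = 0.000202). VIT_204s0044g00220 was called lower in NAA100 berries at E-L 38 (-1.43, adjusted p = 0.00261), with 15.2, 15.1 and 17.1 FPKM, against 94.2, 17.6 and 50.9 FPKM in Control berries, whose 3 libraries differed widely. VIT_207s0031g00620 rose at E-L 34 in NAA100 berries (0.68, adjusted p = 5.2e-05) and at E-L 38 in ABA1000 berries (0.55, adjusted p = 0.00277). VIT_203s0038g02610 rose at E-L 34 in NAA100 berries (0.78, adjusted p = 0.000679) and fell at E-L 36 in ABA1000 berries (-0.66, adjusted p = 0.00921). VIT_204s0008g04750 (-0.71) and VIT_204s0008g04760 (-0.26) fell in NAA100 berries at E-L 36, but they overlap by 1622 bases on opposite strands and cannot be told apart there. Both matched a V-type proton ATPase subunit in UniProt and zeaxanthin epoxidase in another protein database. VIT_204s0008g04750 held an FAD-binding domain, as ZEP-Un did, and VIT_204s0008g04760 an ATP synthase domain. Whether either fall is that of a ZEP gene is not known from these data. VIT_218s0001g01110, between 2.49 and 10.8 FPKM, passed the p limit in no treatment comparison. In UniProt it and VIT_204s0044g00220 matched a urate hydroxylase, and VIT_203s0038g02610 matched a 6-hydroxynicotinate 3-monooxygenase. The capsanthin/capsorubin synthase VIT_206s0080g00810, a relative of the lycopene cyclases that forms red ketocarotenoids in pepper, rose in NAA100 berries at E-L 35 (0.56, adjusted p = 0.00315). The violaxanthin de-epoxidase VIT_204s0043g01010, which reverses the ZEP reaction, lay between 1.79 and 9.22 FPKM and passed the limit in no treatment comparison. VIT_204s0044g00270 and VIT_203s0038g02600 were too low to be tested.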

How the data were processed

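The authors deposited 1 table of FPKM values, per the file header 25280 annotated genes in 36 libraries; Bowtie is named in the submitters' processing notes and TopHat with the CRIBI grape genome in the study's methods, and the counting tool, the genome version for the RNA-seq and use of strand are not given in the sources used here. The deposited FPKM are scaled to library size and transcript length. They gave back whole fragments, in 100% of 752487 values above 0 within 0.01 of a whole number. The table holds no column of the authors' own comparisons, and 0 sample columns were left unused. Genes with at least 1 FPKM in at least 3 libraries (17598) were fitted as log2(FPKM + 1) with limma 3.58.1 (trend; R 4.3.3), means of 12 groups, 24 residual degrees of freedom, and p-values were adjusted by Benjamini-Hochberg over all tested genes in each comparison. Ratios were tested by exact permutation (scipy 1.17.1). The other tables used pandas 2.3.3 and numpy 2.4.6 (Python 3.11.15), the plots matplotlib 3.10.9. The scripts were tested on simulated data.

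Named were the 6 genes, all other annotated cyclase and xanthophyll genes, the genes called among the steps before and after, and the 2 genes most like each of the 6. The members and lists were chosen with earlier results of these data known. The alternatives were another value added to the FPKM, other filters, TPM, median-of-ratios and quantile scaling, no trend, a replicate block, the libraries of a comparison alone, each replicate left out, and Spearman correlation. Limma-voom on recovered fragments and the comparison of NAA100 berries at E-L 36 with Control berries at E-L 38 were chosen after seeing the data. The replicate numbers were not taken to pair libraries, which was examined only between sprayed and Control berries of the same stage. No sequences are shown.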

Additional observations from a re-analysis of the deposited data

Results flagged for a closer look

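The change of the effect of NAA100 against Control berries between neighbouring stages was tested directly. For E-L 36 minus E-L 35, 3 of the 6 genes passed the p limit, where 49.4% of all tested genes did. For E-L 38 minus E-L 36, 3 of the 6 passed, where 46.1% of all tested genes did. Both counts are near the share over all tested genes. For LBCY the effect at E-L 36 minus that at E-L 35 was 0.76 on the log2(FPKM + 1) scale, and that at E-L 38 minus that at E-L 36 was -1.06. For ZEP-chr13 these differences were 0.82 and -1.40. For ZEP-Un the effect at E-L 36 minus that at E-L 35 was 0.53, which passed the p limit in 10 of 21 alternatives. For LUT5 the effect at E-L 38 minus that at E-L 36 was -0.36, lost with median-of-ratios and quantile scaling. The LBCY and ZEP-chr13 differences passed the p limit under all alternatives that gave a value, with highest adjusted p of 0.00146 and 0.00131 for E-L 36 minus E-L 35 and 0.000517 and 7.36e-05 for E-L 38 minus E-L 36, by limma. The summed chlorophyll a-b binding proteins also changed order between stages: they were 943 to 1097 FPKM in NAA100 berries at E-L 34, against 373 to 490 FPKM in Control berries, and 87.6 to 136 FPKM at E-L 36, against 160 to 202 FPKM. At E-L 35 they were 572 to 845 FPKM in NAA100 berries, against 279 to 404 FPKM in Control berries. At E-L 38 they were 88.5 to 119 FPKM, against 63.1 to 78.2 FPKM. Their part in the differences of the 6 genes was not tested.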

How the results depend on the processing

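Counts of genes called and fold changes both moved with the scale. LECY, 0.89 in NAA100 against Control berries at E-L 36 and -0.98 at E-L 36 against E-L 35 in Control berries, was 2.04 and -2.18 with 0.1 FPKM added and 2.45 and -2.60 with limma-voom, and ZEP-chr13 in the first comparison, 1.01, reached up to 1.54. The main counts were 1 for the sprays against Control, 2 for NAA100 against ABA1000, 3 for the stage steps and 2 for the changes of effect. In the same order they were 4, 5, 8 and 5 with 0.1 FPKM added, 0, 1, 1 and 1 with a minimum mean of 5 FPKM (LECY and both ZEP loci then drop out), 0, 0, 1 and 1 with median-of-ratios scaling, 2, 1, 1 and 1 with quantile normalization, and 4, 5, 6 and 4 with limma-voom. With TPM the first 3 were 4, 5 and 6. Leaving out each replicate gave 0 to 2, 1 to 3, 2 to 4 and 1 to 2. The share of all tested genes called moved with the setting too. In NAA100 against Control berries at E-L 36 it was 19.9% in the main fit and 28.4% with limma-voom. Shares under the remaining settings are not given here, so these counts cannot be read as particular to the 6 genes. Among differences larger than 1 SE, the sign turned for LUT5 with median-of-ratios scaling, to 0.0018 in ABA1000 against Control berries at E-L 36 (-0.09 without it) and to -0.066 at E-L 38 against E-L 36 in ABA1000 berries (0.27 without it). For LUT1 in NAA100 against ABA1000 berries at E-L 34 (0.14) it turned to -0.039 with median-of-ratios scaling and -0.031 with quantile normalization. For ZEP-chr13 in Control berries at E-L 36 against E-L 35 (-0.14) it turned to 0.075 with quantile normalization. The LUT1 and ZEP-chr13 differences had not passed the p limit. The median of all genes moved by over 0.1 in 8 of 22 comparisons with median-of-ratios scaling (shifts over the 22 from -0.27 to 0.16), in 10 with quantile normalization (-0.17 to 0.21) and in 6 with TPM (-0.11 to 0.18). Of 46 results of single genes past the p limit, 14 were lost under each of quantile normalization, median-of-ratios scaling and a fit on the libraries of the comparison alone, which leaves fewer samples to estimate the spread, 10 without some replicate, 4 with 0.1 FPKM added, and 2 each with TPM, no filter and limma-voom.

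The LECY to LBCY log2 ratio in NAA100 against Control berries at E-L 36, -0.10, was 0.94 with 0.1 FPKM added, 0.13 with TPM and 0.11 with quantile normalization. Leaving out each replicate gave -0.18 to 0.01 there. Of the 12 genes most like the 6, 2 were again among the top 2 by Spearman rho. The cause of these changes was not tested.

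With the replicate number as a block the counts were 1, 2, 3 and 2, and the block changed no call. It ended the pass of the p limit for LECY in NAA100 against ABA1000 berries at E-L 35 (adjusted p = 0.0122) and for no other of the 46 results. Same-numbered libraries of a spray and of Control at the same stage did not deviate together. Over 24 pairs the mean r was -0.011 (-0.29 to 0.34), against 0.0061 over 48 pairs of other numbers. Libraries of different stages were not compared in this way, so a pairing across stages was not tested. The titles give replicates as letters and the table as numbers.

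With 3 libraries a group, the exact test of a ratio cannot pass 0.05. LECY at E-L 36 rested on 13 to 44 fragments in Control berries, and no depth limit of this kind bears on LUT5 or LBCY.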
